A study of Bos grunniens x Bos taurus and Bos grunniens with 6 samples.

Results

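The genes described here carry out testicular steroidogenesis, together with the peptide hormone gene INSL3, which the same Leydig cells express. They were taken from the gene expression table by symbol, without regard to case, as SCARB1, STAR, CYP11A1, FDX1, FDXR, CYP17A1, SRD5A1, CYP19A1, NR5A1 and INSL3. These 10 symbols stood on 12 of the 18918 gene IDs, because CYP17A1 was listed under 3 gene IDs. In the annotation terms of the table, 7 of the 12 carried ovarian steroidogenesis, 7 cortisol synthesis and secretion, and 6 steroid hormone biosynthesis. The study sequenced the testis RNA of 3 cattle-yak and 3 yak, 1 library per animal, to compare the sterile male hybrid with its fertile parent species. All 6 males were 4 years old, by the labels. The yak were of the Gannan breed, and the cattle-yak were first-generation offspring of Jersey bulls and Gannan yak cows. Per the methods of the study, the cattle-yak testes came from castrations in one county and the yak testes from euthanized animals in another, so that genotype, place and manner of collection cannot be told apart. Reads of both groups were mapped to the yak genome, and the effect of this on transcripts of the cattle alleles was not tested.

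Steroid hormones are made in Leydig cells, which lie between the seminiferous tubules and respond to luteinizing hormone. Cholesterol is taken up, carried into the mitochondria by STAR, cut to pregnenolone by CYP11A1 with electrons passed from FDXR through FDX1, and turned into androgen precursors by CYP17A1. SRD5A1 and CYP19A1 act on the products, NR5A1 is a transcription factor for many of these genes, and INSL3 is known for its part in the descent of the testis.

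Each cattle-yak library held 11175100 to 11834987 fragments on genes and each yak library 12991641 to 13136129, so that 1 fragment on 1 kb of gene model stood for 0.0761 to 0.0895 FPKM (fragments per length of gene model and per depth of the library). The spermatid markers summed to 14.3 to 66.6 FPKM per cattle-yak library and to 7396 to 8996 FPKM per yak library, and all 4 markers tested were lower in cattle-yak. The Sertoli cell markers summed to 1480 to 1743 against 291.8 to 362.8 FPKM, with 11 of 11 tested higher. The Leydig cell markers outside the genes described here summed to 250.1 to 264.5 against 75.98 to 83.04 FPKM, with 4 of 4 tested higher, while PRLR and HSD11B1 were near 0. These counts use the calls defined below, by which 33.4% of all genes tested were higher and 20.8% lower. Markers of the adrenal cortex, another steroid-making tissue, summed to 2.06 to 6.51 against 0.587 to 1.19 FPKM. In bulk tissue, fewer cells of a type and less RNA per cell cannot be told apart, and the part of cell composition in the differences given next was not tested.

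On the deposited scale SCARB1, STAR, CYP11A1, FDXR, the CYP17A1 gene IDs, NR5A1 and INSL3 were called higher in cattle-yak testis, while FDX1 and SRD5A1 were not called and CYP19A1 was at a few fragments in most libraries. Of the 12 gene IDs, 11 passed the minimum mean of 0.5 FPKM and were tested with limma on log2 (FPKM + 1). A call needed an adjusted p (Benjamini-Hochberg, over all genes tested) under 0.05 together with a log2 (foldchange) beyond 1. Of the 11, 9 were called higher in cattle-yak and 0 lower, where 33.4% of all 15042 genes tested were called higher and 20.8% lower. At an unadjusted p under 0.05 there were 0 members lower as well, while voom on the recovered fragments with size factors called 1 lower, SRD5A1 at -1.03. The median log2 (foldchange) of the 11 was 1.75 and that of all genes tested was 0.51. In 9 of the 11 every cattle-yak value lay above every yak value, as in 53.9% of all genes, and in 1 of them every value lay below, as in 30.2% of all genes. After median-of-ratios scaling the 9 remained above 0 but 6 of them were called, INSL3, FDXR and 1 of the CYP17A1 gene IDs being under the fold threshold, and fewer were called when libraries were centred on cell type markers, as given further on.

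**Figure D1:**
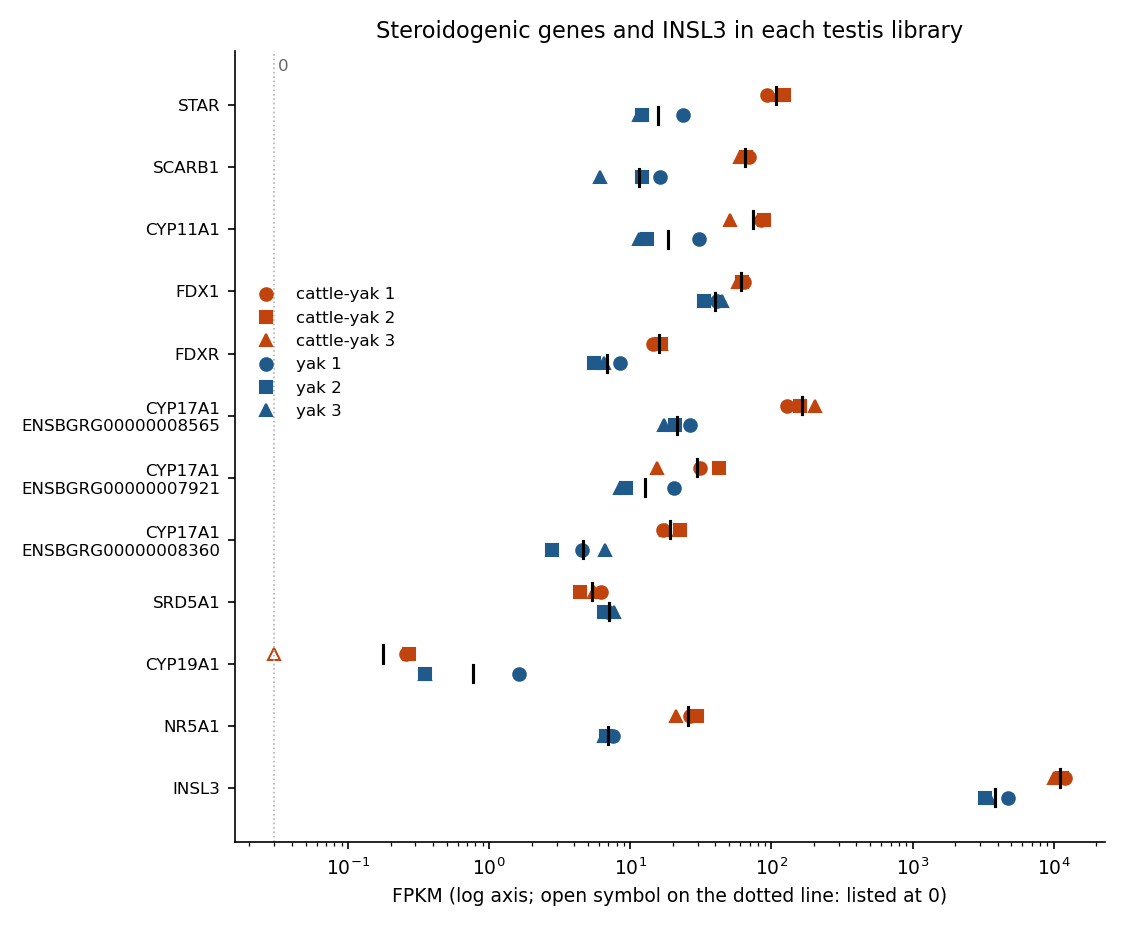
FPKM (log axis) of the 12 gene IDs in each of the 6 testis libraries, with cattle-yak above yak in each pair of lines, symbols for the animals and black bars for the group means. INSL3 lies between 3282 and 12067 FPKM in every library, and the groups are apart for STAR, SCARB1, CYP11A1, NR5A1 and INSL3 on this deposited scale, on which no cell type is held constant.

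SCARB1 (ENSBGRG00000012214), the receptor that takes up cholesterol from high-density lipoprotein, was at 69.3, 66.2 and 60.1 FPKM in cattle-yak 1, 2 and 3 and at 16.1, 12.1 and 6.11 FPKM in yak 1, 2 and 3. The cattle-yak values lay close together, and the yak values spread 2.64-fold, from yak 1 down to yak 3. The group means were 65.2 ± 4.69 and 11.5 ± 5.05 FPKM (SD, n = 3 each), a log2 (foldchange) of 2.50 (SE 0.28, limma adjusted p = 5.957e-05). STAR (ENSBGRG00000018086), which moves cholesterol to the inner mitochondrial membrane and thereby sets the rate of steroid synthesis, was at 92.9, 121.9 and 111.0 FPKM in cattle-yak and at 23.6, 12.2 and 11.6 FPKM in yak. Yak 1 stood above the other two yak and still far below the lowest cattle-yak library. The means of 108.6 ± 14.6 and 15.8 ± 6.79 FPKM differed 6.87-fold, a log2 (foldchange) of 2.77 (SE 0.25, limma adjusted p = 1.563e-05), and 0.858% of all genes tested had a larger one.

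CYP11A1 (ENSBGRG00000004363), the side chain cleavage enzyme that makes pregnenolone, was at 84.2, 88.4 and 50.9 FPKM in cattle-yak and at 30.6, 13.1 and 11.6 FPKM in yak. Cattle-yak 3 was the low library of its group and yak 1 the high library of the other, and the groups did not overlap. The log2 (foldchange) was 2.05 (SE 0.36, limma adjusted p = 7.587e-04). FDX1 (ENSBGRG00000012771), the ferredoxin that hands electrons to CYP11A1, was at 63.8, 61.6 and 57.6 FPKM in cattle-yak and at 41.4, 33.3 and 44.8 FPKM in yak. The groups were apart, and the step between them was small beside that of CYP11A1. With a log2 (foldchange) of 0.61 (95% confidence interval 0.32 to 0.90, limma adjusted p = 1.927e-03), FDX1 was under the fold threshold and was not called. FDXR (ENSBGRG00000014566), the reductase that charges FDX1 with electrons from NADPH, was at 14.6, 16.5 and 16.6 FPKM in cattle-yak and at 8.41, 5.54 and 6.49 FPKM in yak. Every cattle-yak library was above every yak library, with a log2 (foldchange) of 1.13 (SE 0.16, limma adjusted p = 2.17e-04), which was 0.61 above the median of all genes. After median-of-ratios scaling it was at 0.56 and was not called.

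CYP17A1, whose hydroxylase and lyase activities lead to the androgen precursors, was listed under 3 gene IDs with model lengths of 1404, 1527 and 1581 bases. Reads of near-identical copies can be split between such IDs, and how the counting treated these reads is not given in the sources used here, so that the values of the single IDs are uncertain. ENSBGRG00000008565 was the most abundant, at 129.3, 158.1 and 203.4 FPKM in cattle-yak and at 26.5, 20.7 and 17.2 FPKM in yak. Its log2 (foldchange) of 2.87 (SE 0.20, limma adjusted p = 3.597e-06) was the largest of the 11 members tested. ENSBGRG00000008360 was at 16.9, 22.5 and 18.05 FPKM in cattle-yak and at 4.53, 2.80 and 6.57 FPKM in yak, again without overlap. Its log2 (foldchange) was 1.89 (SE 0.25, limma adjusted p = 1.37e-04). ENSBGRG00000007921 was at 31.3, 42.5 and 15.5 FPKM in cattle-yak and at 20.3, 9.34 and 8.47 FPKM in yak. Here the groups overlapped, since cattle-yak 3 lay below yak 1. Its log2 (foldchange) was 1.16 (95% confidence interval 0.22 to 2.09, limma adjusted p = 0.02739). This call did not hold without cattle-yak 1 (1.07, limma adjusted p = 0.0596), without cattle-yak 2 (0.85, limma adjusted p = 0.106), without yak 2 (1.003, limma adjusted p = 0.0914) or without yak 3 (0.94, limma adjusted p = 0.1001).

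Summed over the 3 gene IDs, CYP17A1 was at 212.6 ± 31.1 FPKM in cattle-yak and 38.8 ± 10.9 FPKM in yak, with the lowest cattle-yak library at 177.5 and the highest yak library at 51.4 FPKM. The log2 (foldchange) of the sum was 2.45 (SE 0.19, limma adjusted p = 7.374e-06). ENSBGRG00000008565 held 72.8%, 70.8% and 85.9% of the sum in cattle-yak 1, 2 and 3 and 51.6%, 63.0% and 53.4% in yak 1, 2 and 3. The share of ENSBGRG00000007921 was 17.6%, 19.1% and 6.53% in cattle-yak and 39.6%, 28.5% and 26.2% in yak. The first share was thus larger, and the second smaller, in every cattle-yak library than in any yak library. The share of ENSBGRG00000008360 overlapped between the groups, at 9.54%, 10.1% and 7.62% in cattle-yak and 8.81%, 8.54% and 20.4% in yak.

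**Figure D2:**
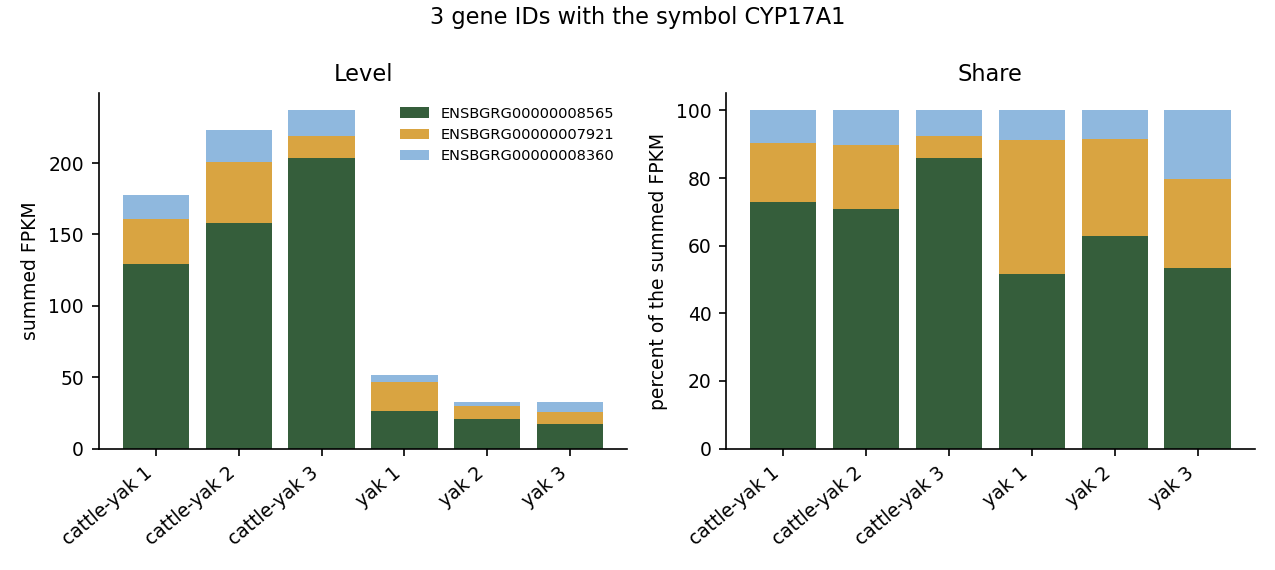
Summed FPKM (left) and percent of that sum (right) of the 3 gene IDs with the symbol CYP17A1 in each library, as stacked bars. The sum is 177.5 to 236.9 FPKM in cattle-yak and 32.3 to 51.4 FPKM in yak, and ENSBGRG00000008565 holds the largest share in every library.

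SRD5A1 (ENSBGRG00000009686), a steroid 5-alpha reductase that forms dihydrotestosterone from testosterone, was at 6.22, 4.4 and 5.56 FPKM in cattle-yak and at 6.97, 6.51 and 7.72 FPKM in yak. It was the one tested member with every cattle-yak value below every yak value. The log2 (foldchange) was -0.34 (95% confidence interval -0.70 to 0.01, limma adjusted p = 0.0692), and it was not called. CYP19A1 (ENSBGRG00000009541), the aromatase that makes estrogens, rested on 2, 2 and 0 fragments in cattle-yak 1, 2 and 3 and on 14, 3 and 3 fragments in yak 1, 2 and 3. In FPKM these were 0.257, 0.272 and 0 against 1.62, 0.348 and 0.351, so that yak 1 alone stood apart from the other libraries. Relative to depth, the pooled yak libraries held 4.41 times the fragments of the pooled cattle-yak libraries (exact 95% interval 1.48 to 17.7, counting error only). Without yak 1 this ratio was 1.99 (exact 95% interval 0.472 to 9.58). In a fit without the minimum on FPKM the log2 (foldchange) was -0.53 (limma adjusted p = 0.115).

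NR5A1 (ENSBGRG00000018297), the nuclear receptor also called steroidogenic factor 1, was at 26.4, 29.8 and 21.2 FPKM in cattle-yak and at 7.54, 6.73 and 6.49 FPKM in yak. The yak values lay within 1.16-fold of each other, and the groups were far apart. The log2 (foldchange) was 1.75 (SE 0.15, limma adjusted p = 1.055e-05). Sertoli cells are known to express NR5A1 as well as Leydig cells do, and these bulk libraries do not separate them.

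INSL3 (ENSBGRG00000025999) was at 12067, 11427 and 10027 FPKM in cattle-yak and at 4769, 3282 and 3475 FPKM in yak. It ranked first of all genes in each cattle-yak library and rank 4 in each yak library. It rested on 87700 to 107679 fragments in cattle-yak and 32434 to 47233 in yak, by far the deepest measurement among the members. The means of 11173 ± 1043 and 3842 ± 808 FPKM differed 2.91-fold, a log2 (foldchange) of 1.56 (SE 0.17, limma adjusted p = 4.748e-05). Of all genes tested, 16.7% had a larger log2 (foldchange). After median-of-ratios scaling INSL3 was at 0.94, under the fold threshold, and was not called.

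Per length of gene model, the order of the mean FPKM in cattle-yak was INSL3, CYP17A1 (ENSBGRG00000008565), STAR, CYP11A1, SCARB1, FDX1, CYP17A1 (ENSBGRG00000007921), NR5A1, CYP17A1 (ENSBGRG00000008360), FDXR, SRD5A1 and CYP19A1. The ranges over the cattle-yak libraries overlapped between neighbours from CYP11A1 to FDX1 and from ENSBGRG00000007921 to ENSBGRG00000008360, and not elsewhere in this order. The model lengths that FPKM divides by ran from 546 bases for FDX1 to 3904 bases for SCARB1, so that the order depends on how complete these models are. In yak, INSL3 was followed by FDX1 at 39.8 ± 5.94 FPKM. All neighbours after FDX1 overlapped, from CYP17A1 (ENSBGRG00000008565) at 21.5 ± 4.70 FPKM down to CYP17A1 (ENSBGRG00000008360) at 4.63 ± 1.89 FPKM, and CYP19A1 stood lowest. FDX1 thus took place 2 in yak and place 6 in cattle-yak when the CYP17A1 gene IDs were taken singly. Summed over its gene IDs, CYP17A1 was at 38.8 ± 10.9 FPKM in yak, which overlapped FDX1.

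Within the groups, the members did not vary evenly. Yak 1 was the highest yak library for 9 of the 12 gene IDs and the lowest for 0, where 32.7% of all genes tested were highest in that animal. Cattle-yak 3 was the lowest cattle-yak library for 7 of the 12, where 36.7% of all genes were lowest there. The coefficient of variation over the yak libraries was 57.5% for CYP11A1, 52.0% for CYP17A1 ENSBGRG00000007921, 44.1% for SCARB1 and 43.0% for STAR. It was 21.0% for INSL3, 7.97% for NR5A1 and 8.65% for SRD5A1, and the median over all genes tested was 12.9%. In cattle-yak the values were 45.7% for CYP17A1 ENSBGRG00000007921, 27.6% for CYP11A1, 13.5% for STAR, 7.20% for SCARB1 and 9.34% for INSL3. The median over all genes tested was 14.2% there. Without yak 1, the same number of members, 9, was called higher.

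Ratios between members within a library do not depend on the scaling between libraries, and 8 were compared. With 3 animals against 3 the exact two-sided permutation test cannot go below p = 0.1, which is the value for the 6 ratios without overlap (Benjamini-Hochberg adjusted p = 0.133 over the 8). One of these 6, NR5A1 per CYP17A1, overlapped when the CYP17A1 gene IDs were summed, an alternative chosen after the data were seen. Lack of overlap was common in these data. Of all single genes tested, 53.9% lay wholly above and 30.2% wholly below in cattle-yak. The share over ratios of other genes was not computed. STAR per CYP11A1 was 1.10, 1.38 and 2.18 in cattle-yak 1, 2 and 3 and 0.772, 0.931 and 1.001 in yak 1, 2 and 3, so that every cattle-yak ratio was above every yak ratio. FDX1 per CYP11A1 was 0.757, 0.697 and 1.13 in cattle-yak and 1.35, 2.54 and 3.88 in yak, 2.81-fold higher in yak by the geometric means. FDXR per CYP11A1 was 0.173, 0.186 and 0.326 against 0.275, 0.423 and 0.561, and here the groups overlapped (exact permutation p = 0.2, adjusted p = 0.229).

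The other ratios were taken mostly against CYP17A1, at its most abundant gene ID. SRD5A1 per CYP17A1 was 0.0481, 0.0278 and 0.0273 in cattle-yak and 0.263, 0.315 and 0.448 in yak, a 10.05-fold difference of geometric means and the largest of the 7 ratios with no value at 0. INSL3 per CYP17A1 was 93.3, 72.3 and 49.3 in cattle-yak and 179.9, 158.9 and 201.9 in yak, 2.59-fold higher in yak. Although both genes had higher FPKM in cattle-yak, their proportion therefore differed between the groups without overlap. NR5A1 per CYP17A1 was 0.204, 0.189 and 0.104 in cattle-yak and 0.284, 0.326 and 0.377 in yak, which also did not overlap. With the 3 CYP17A1 gene IDs summed, NR5A1 per CYP17A1 was 0.149, 0.134 and 0.0897 against 0.147, 0.205 and 0.201, and the groups overlapped (exact permutation p = 0.2). The ratios of SRD5A1, CYP19A1 and INSL3 to that sum did not overlap. CYP19A1 per CYP17A1 was 0.00199, 0.00172 and 0 against 0.0612, 0.0169 and 0.0204, on few fragments of CYP19A1. SCARB1 per STAR was 0.746, 0.543 and 0.541 in cattle-yak and 0.683, 0.996 and 0.528 in yak, with the groups interleaved (exact permutation p = 0.7, adjusted p = 0.7).

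**Figure D3:**
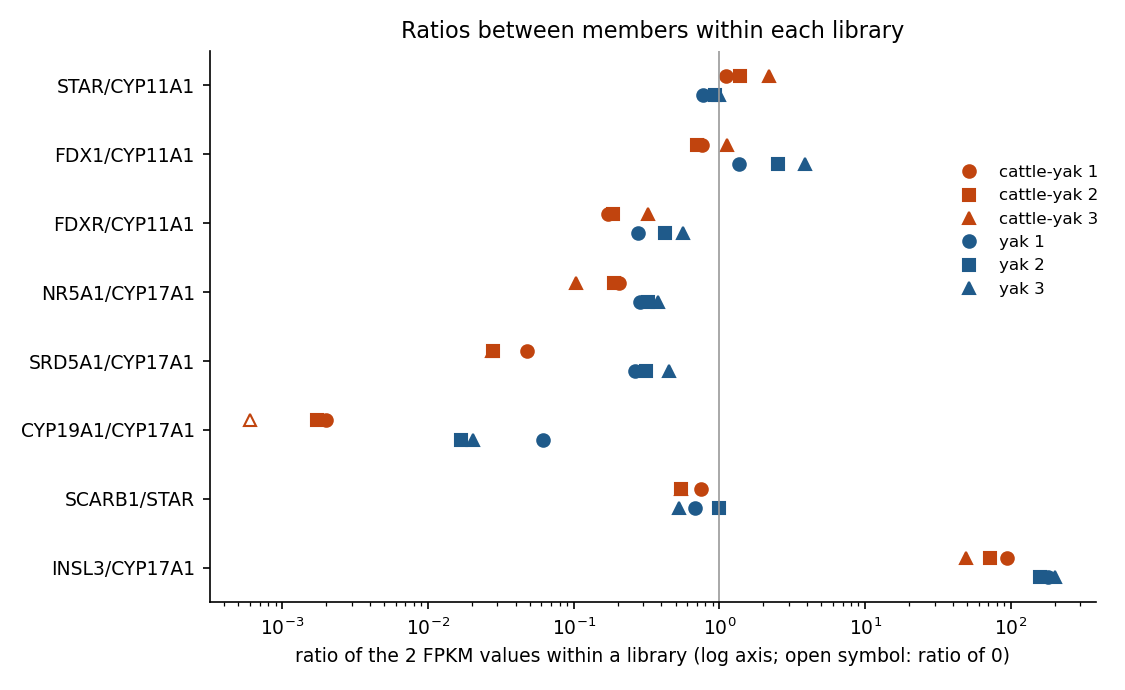
Ratio of the FPKM of 2 members within each library (log axis), with cattle-yak above yak in each pair of lines and a grey line at a ratio of 1. SRD5A1/CYP17A1 reaches at most 0.0481 in cattle-yak and is at least 0.263 in yak, while SCARB1/STAR overlaps between the groups.

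The FPKM values carry no scaling between libraries beyond depth, and the median gene was higher in cattle-yak by 0.51 on the log2 scale. After median-of-ratios scaling, which puts this median at 0.01, 2655 genes were called higher (17.7%) and 4173 lower (27.7%) in place of 5023 and 3136. On that scale 6 members were called higher. These were CYP17A1 ENSBGRG00000008565 at a log2 (foldchange) of 2.27, STAR at 2.17, SCARB1 at 1.91, CYP11A1 at 1.45, CYP17A1 ENSBGRG00000008360 at 1.34 and NR5A1 at 1.18. INSL3 was at 0.94, CYP17A1 ENSBGRG00000007921 at 0.57 and FDXR at 0.56, all under the fold threshold, FDX1 was at 0.01 and SRD5A1 at -0.87.

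When the libraries were centred on the 4 Leydig cell markers tested, 1 member was called higher, as were 0.725% of all genes, and 2 were called lower, as were 60.7%. At an unadjusted p under 0.05, 3 members were above 0 and 3 below. The one called higher was CYP17A1 ENSBGRG00000008565 at a log2 (foldchange) of 1.04, with STAR at 0.94 and SCARB1 at 0.67 under the threshold. CYP17A1 ENSBGRG00000008360 was at 0.06 and CYP17A1 ENSBGRG00000007921 at -0.67, neither of them called. How reads were split between the CYP17A1 gene IDs is uncertain, and their sum was not fitted under this centring. INSL3 was at -0.27, NR5A1 at -0.08, CYP11A1 at 0.22 and FDXR at -0.70, and those called lower were SRD5A1 at -2.17 and FDX1 at -1.21. Centred on the 11 Sertoli cell markers tested, 0 members were called higher by limma, as were 0.306% of all genes, and at an unadjusted p under 0.05, 2 members were above 0 and 4 below. SRD5A1 and FDX1 were again called lower, at -2.41 and -1.46, as were 68.8% of all genes. CYP17A1 ENSBGRG00000008565 was at 0.80, STAR at 0.70 and SCARB1 at 0.43 there, whereas INSL3 was at -0.52. INSL3, NR5A1, CYP11A1 and CYP17A1 ENSBGRG00000008360 passed an adjusted p of 0.05 under neither centring. In that order, the limma adjusted p was 0.23, 0.67, 0.56 and 0.83 against the Leydig markers. Against the Sertoli markers the limma adjusted p was 0.057, 0.070, 0.95 and 0.42. SCARB1 did not pass against the Sertoli markers (limma adjusted p = 0.21), nor CYP17A1 ENSBGRG00000007921 against the Leydig markers (limma adjusted p = 0.13).

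**Figure D4:**
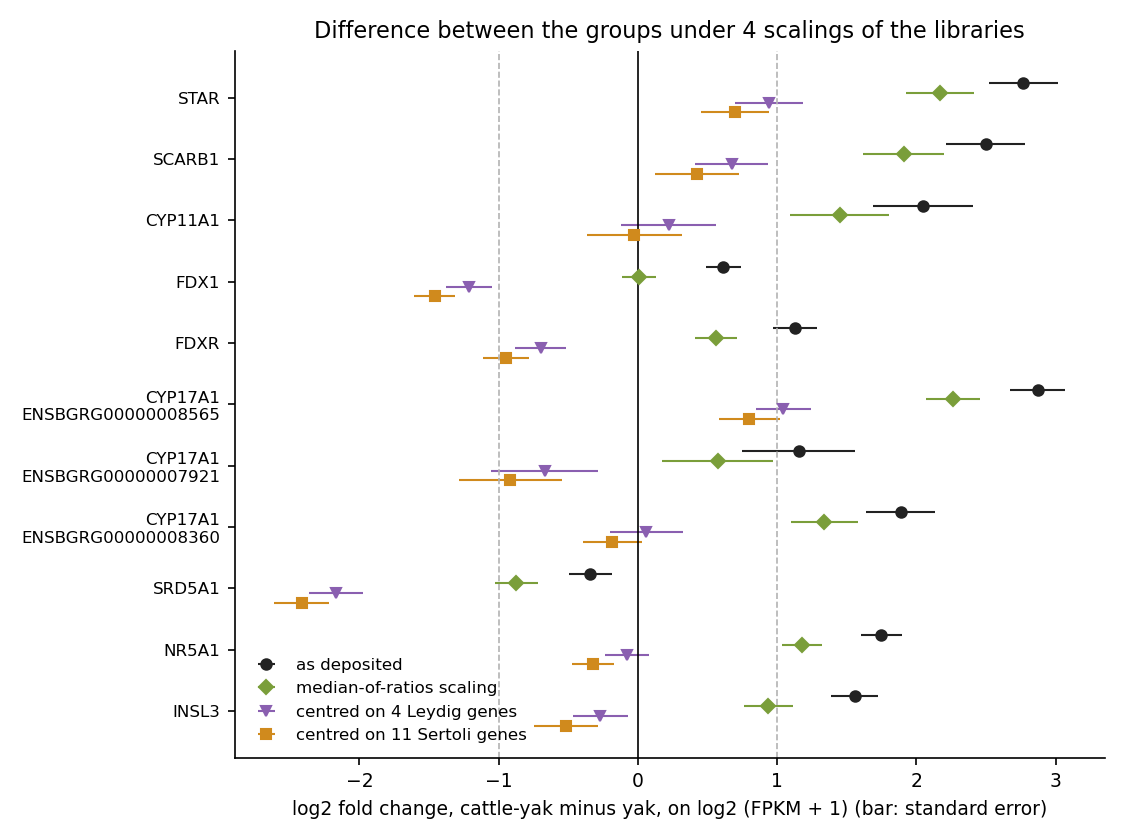
log2 fold change of the 11 tested gene IDs (cattle-yak minus yak on log2 (FPKM + 1)) with the standard error, on the deposited scale and under 3 other scalings of the libraries, with dashed lines at the fold threshold. SRD5A1 and FDX1 are called lower under both centrings on cell type markers, at -1.21 or below, while INSL3 and NR5A1 lie within -0.52 to -0.08 there and do not pass.

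The other genes of these pathways were taken as 5 lists of 91 symbols, of which 75 were in the table and 63 were tested. On the deposited scale 36 of the 63 were called higher and 7 lower, and after median-of-ratios scaling 29 were called higher and 8 lower. Over all genes tested, 33.4% were called higher and 20.8% lower on the deposited scale, and 17.7% and 27.7% after that scaling. Of 14 genes for cholesterol supply and transfer, 7 were higher, 2 lower and 5 not called, with a median log2 (foldchange) of 1.17. VDAC1, a channel of the outer mitochondrial membrane, was at 205.1 ± 9.56 FPKM in cattle-yak and 38.7 ± 4.84 in yak (log2 (foldchange) 2.38, limma adjusted p = 5.322e-07). STARD4, a cytosolic cholesterol carrier, was at 59.6 ± 5.61 against 13.04 ± 4.52 FPKM (2.15, limma adjusted p = 2.394e-05). Its gene model was short, at 168 bases, with 106 to 125 fragments per cattle-yak library and 21 to 40 per yak library. STARD4, like LHCGR and CYB5A, is also among the Leydig cell markers used for centring. LIPE, the hormone-sensitive lipase that frees cholesterol from its stored esters, was on the opposite side, at 3.76 ± 1.53 against 120.2 ± 11.8 FPKM (-4.71, limma adjusted p = 4.571e-07). Germ cells of the testis are also known to express LIPE. The other gene called lower was STARD6, named after its values were seen, at 1.12 ± 0.457 against 6.95 ± 0.741 FPKM.

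Of 16 tested genes among the other steroid enzymes, 9 were higher, 1 lower and 6 not called, with a median log2 (foldchange) of 1.46. HSD17B1, which reduces estrone to estradiol, was at 0.200 ± 0.0773 FPKM in cattle-yak, on 3 to 7 fragments, and at 19.8 ± 2.68 FPKM in yak (-4.11, limma adjusted p = 2.202e-07). HSD17B12, with a known part in fatty acid elongation, was at 67.8 ± 6.06 against 13.3 ± 0.696 FPKM (2.27, limma adjusted p = 5.796e-07). HSD17B14 was at 22.3 ± 3.17 against 4.39 ± 0.291 FPKM (2.10, limma adjusted p = 3.164e-06). HSD3B1 and HSD17B3, the enzymes before and at the last step to testosterone, were not analysed here under these symbols. A gene with the symbol HSD3B, named after its values were seen, was at 43.5 ± 4.45 against 12.5 ± 2.54 FPKM (1.73, limma adjusted p = 1.525e-05). SRD5A2, the other 5-alpha reductase of male tissues, held at most 1 fragment in each library.

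Of 8 tested genes for the electron supply to the P450 enzymes, 7 were called higher and 0 lower, with a median log2 (foldchange) of 1.58. POR, the reductase that serves CYP17A1, was at 41.0 ± 1.56 against 17.1 ± 0.933 FPKM (1.21, limma adjusted p = 8.254e-06). CYB5A, the cytochrome b5 that favours the lyase step of CYP17A1, was at 165.3 ± 6.69 against 58.8 ± 0.772 FPKM (1.47, limma adjusted p = 1.282e-06). CYB5B, CYB5R3 and ME1 had a log2 (foldchange) of 2.08, 1.88 and 1.85. The gene not called was FDX2, the ferredoxin of iron-sulfur cluster assembly, at 8.65 ± 1.03 against 10.5 ± 1.98 FPKM with overlapping groups. CYB5A and CYB5R3 each stood on more than 1 gene ID, and the most abundant one was used.

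Of 23 tested genes for luteinizing hormone signalling and its regulators, 13 were higher, 3 lower and 7 not called, with a median of 1.014. LHCGR, the receptor of luteinizing hormone, was at 21.7 ± 1.55 against 5.11 ± 1.47 FPKM (1.92, limma adjusted p = 1.905e-05). NR0B1, a nuclear receptor that represses NR5A1 targets, was at 13.8 ± 0.144 against 2.30 ± 0.479 FPKM (2.18, limma adjusted p = 3.179e-06). GATA6, a transcription factor of gonadal somatic cells, was at 24.98 ± 1.88 against 3.05 ± 0.587 FPKM (2.69, limma adjusted p = 1.124e-06). CREM, known as a regulator of spermatid genes, was at 15.5 ± 8.62 against 258.2 ± 5.96 FPKM (-4.14, limma adjusted p = 1.371e-05). AKAP1, an anchor of protein kinase A at mitochondria, was at 19.3 ± 1.05 against 180.2 ± 14.5 FPKM (-3.15, limma adjusted p = 1.17e-07). The remaining gene called lower was NR4A2, named after its values were seen, at 1.85 ± 0.0347 against 9.08 ± 1.16 FPKM.

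Of the relatives and receptors of INSL3, 6 were in the table and 2 were tested. INSL6, a relaxin family peptide of male germ cells, was at 15.9, 11.4 and 3.07 FPKM in cattle-yak and at 94.1, 126.4 and 105.5 FPKM in yak. It was thus lower in every cattle-yak library (log2 (foldchange) -3.52, limma adjusted p = 1.335e-04), on the opposite side from INSL3. RXFP2, the receptor of INSL3, was under the minimum mean and was not tested. It rested on 17, 28 and 15 fragments in cattle-yak and on 0, 1 and 1 fragments in yak.

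**Figure D5:**
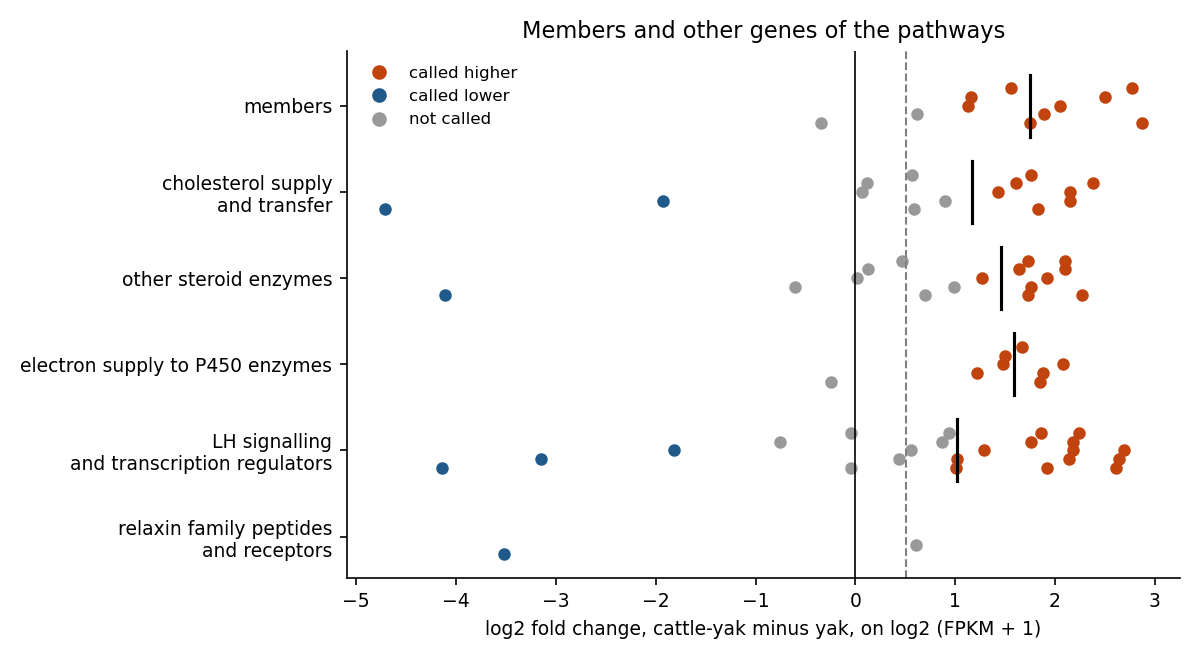
log2 fold change (cattle-yak minus yak, deposited scale) of each tested gene among the members and in 5 lists of other pathway genes, coloured by call, with a black bar at the median of each list of more than 2 genes and a dashed line at the median of all genes, 0.51. LIPE, HSD17B1, CREM, AKAP1 and INSL6 lie at -3.15 or below, away from the rest of their lists; centring on Leydig or Sertoli cell markers leaves 0 of the 63 list genes called higher.

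By the root mean square distance between centred log2 (FPKM + 1) profiles over the 6 libraries, among 14673 genes, the profiles most like that of INSL3 were MS4A8 (0.0735), ARMCX2 (0.0743) and SNX7 (0.0761). MS4A8 was at 6.44, 5.83 and 4.89 FPKM in cattle-yak and at 2.28, 0.995 and 1.15 FPKM in yak. ARMCX2 and SNX7 reached at most 5.77 and 7.65 FPKM. At such low levels the added 1 shrinks the change, so that nearness on this scale does not mean a like ratio of FPKM. Those nearest to CYP17A1 ENSBGRG00000008565 were RBX1 (0.0847), RPL6 (0.167) and FXYD6 (0.173), with RPL6 under one of several gene IDs of that symbol. That RPL6 gene ID was low as well, at 6.75, 6.94 and 8.68 FPKM in cattle-yak and at 0.352, 0.265 and 0.178 FPKM in yak. FXYD6 was at 158.9, 215.3 and 226.8 FPKM in cattle-yak and at 30.6, 28.4 and 27.9 FPKM in yak, a level close to that of CYP17A1 itself. Among those nearest to CYP19A1 were TBX20 (0.131) and MTMR11 (0.139), and both were highest in yak 1. The CYP19A1 profile rests on 2, 2 and 0 fragments in cattle-yak and 14, 3 and 3 in yak. Selection by this profile therefore favours genes that are highest in yak 1.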

How the data were processed

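RNA was sequenced from testis tissue of 6 animals as stranded, poly(A)-selected paired-end libraries. By the methods of the study, read trimming used Trimmomatic and alignment used HISAT2 against the yak assembly LU_Bosgru_v3.0, and the authors then calculated FPKM. The values deposited by the authors are FPKM per gene, with annotation terms, and are not scaled between libraries beyond depth. Samples were grouped by their labels, their replicate numbers follow the order of the samples only, and 0 columns could not be assigned. P-values set the difference between the groups against the spread between these animals.

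Whole fragments were recovered from the steps between low FPKM values for 17973 genes (100% of values within 0.03 fragments of a whole number), which gave the depths and gene model lengths. Genes with a mean of at least 0.5 FPKM were compared with limma 3.58.1 in R 4.3.3 (lmFit, eBayes with a trend, two-sided) on log2 (FPKM + 1), with thresholds of 0.05 on the Benjamini-Hochberg adjusted p and 1 on the absolute log2 fold change. This scale understates the change of low genes. limma was used in place of the count test of the study because the table holds FPKM. Ratios were compared with exact permutation tests (scipy 1.17.1), and the scripts were tested on simulated data. The members, lists and tests were chosen with earlier results of these data known. Named in each list were the 3 called genes with the largest absolute log2 fold change, HSD3B1, HSD17B3, SRD5A2, POR, CYB5A, LHCGR, NR0B1, RXFP2 and INSL6, and as nearest profiles 3 genes each for INSL3, CYP17A1 and CYP19A1, of which 1 is not reported here. A symbol on several gene IDs was taken at its most abundant ID. Alternatives were other pseudocounts, minimums and scalings, TPM, voom on the recovered fragments, and leaving out each animal. Exact intervals of fragments cover counting error only. Histology, RT-qPCR and splicing were not analysed here.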

Additional observations from a re-analysis of the deposited data

How the results depend on the processing

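The 9 members called higher in cattle-yak were 8 to 9 when each animal was left out in turn, 6 after median-of-ratios scaling, quantile scaling or voom on fragments with size factors, and 1 and 0 when centred on Leydig and Sertoli cell markers; the cause was not tested beyond the construction of these scalings. Members called lower went from 0 to 1 (SRD5A1) under voom with size factors and to 2 and 2 under the Leydig and Sertoli centring. The other pathway genes called higher went from 36 to 0 and 0 and those called lower from 7 to 23 and 29 under these centrings. Over all genes, the 5023 called higher became 109 and 46, 2655 after median-of-ratios scaling and 7916 without the fold threshold, and the 3136 called lower became 9124 and 10353. Centred on Sertoli markers, CYP11A1 was at -0.025, FDX1 at -1.46, FDXR at -0.95, CYP17A1 ENSBGRG00000007921 at -0.92, CYP17A1 ENSBGRG00000008360 at -0.18, NR5A1 at -0.32 and INSL3 at -0.52. Centred on Leydig markers, FDX1 was at -1.21, FDXR at -0.70, CYP17A1 ENSBGRG00000007921 at -0.67, NR5A1 at -0.076 and INSL3 at -0.27. FDX1 was at -0.0049 under voom with size factors. The log2 ratio of SCARB1 to STAR, -0.24 between the groups, was -0.45 to 0.0053 when each animal was left out in turn, above 0 without yak 2 only. Of 221 recomputed fold changes of members, 184 kept their direction and their side of the threshold, and 13 changed sign. Among those that kept their sign, 20 lost the call and 4 gained one. Changes of call among the 13 are not in these counts. Under both centrings INSL3 changed sign and lost its call, and FDX1 changed sign and gained one. Of 58 recomputed ratios 57 kept their direction, and of 120 recomputed counts 105 stayed within 1.5 times. CYP19A1 could be fitted only without the minimum on FPKM. The depth limits CYP19A1, SRD5A2 and RXFP2, with few fragments. No paired analysis was possible because the labels give no replicate numbers shared between the groups. Summing the CYP17A1 gene IDs, added after the data were seen, made NR5A1 per CYP17A1 overlap between the groups (log2 ratio -0.59 in place of -1.04).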

Other observations

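Among the 45 genes annotated to steroid hormone biosynthesis other than the members, 20 were tested, 6 were called higher in cattle-yak and 5 lower, and the median log2 (foldchange) was 0.52, against 0.51 over all genes. The 5 called lower, named after their values were seen, were HSD17B1, CYP3A24, CYP2C21, UGT1A1 and DHRS11. The annotated pathway of ovarian steroidogenesis held 37 other tested genes, with 18 called higher and 5 lower and a median of 0.81. That of cortisol synthesis and secretion, added after the data were seen, held 53, with 28 called higher and 1 lower and a median of 1.04. For comparison, 33.4% of all genes tested were called higher and 20.8% lower.

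Of the remaining marker lists, all 6 tested peritubular myoid genes and 6 of 7 spermatogonial genes were called higher in cattle-yak. Of 7 spermatocyte genes, 1 was called higher and 1 lower, and they summed to 183.0 to 320.3 FPKM per cattle-yak library and to 342.2 to 351.1 FPKM per yak library. Of 7 endothelial genes 3 were called higher and 1 lower, and of 6 macrophage genes 3 were called higher and 2 lower. The shares over all genes tested were 33.4% called higher and 20.8% called lower. Of the adrenal cortex markers, MC2R, the receptor of adrenocorticotropic hormone, was at 2.15 FPKM in cattle-yak and 0.171 FPKM in yak.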
